A study of Mus musculus with 12 samples.

Results

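The 9 genes described here encode enzymes that assemble triglyceride in the liver: Gpam, Agpat2, Agpat3, Lpin1, Lpin2, Lpin3, Dgat1, Dgat2 and Mogat1. They were chosen by symbol, as all probe sets to which the array's annotation gives 1 of these names. This gave 19 of 45101 probe sets, and all 9 genes were among the 18194 tested. RNA came from livers of mice on a SV129XC57Bl/6 background, in 4 groups of 3 arrays: control fasted, control fasted and then refed, LG2KO fasted, and LG2KO fasted and then refed. LG2KO is read here as loss of the hepatic glucose transporter gene Slc2a2 (Glut2). The LG2KO mice are labelled as tamoxifen treated and the control mice carry no such label, so the deletion and the drug cannot be told apart. The labels do not give the driver of the deletion, the alleles of the control mice, or age and sex. Each array held pooled RNA of 3 animals, so n = 3 pools per group throughout. The source text of the LG2KO fasted arrays calls them refed, against their titles and diet labels, and the titles were followed.

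Triglyceride is made in the endoplasmic reticulum by adding fatty acids, one after another, to glycerol phosphate. Glycerol phosphate acyltransferases such as the mitochondrial enzyme encoded by Gpam add the first chain, and the acylglycerol phosphate acyltransferases encoded by Agpat2 and Agpat3 add the next, which gives phosphatidate. Lipins remove its phosphate to give diacylglycerol, and the enzymes encoded by Dgat1 and Dgat2 add the last chain. Mogat1 encodes an enzyme that reaches diacylglycerol from monoacylglycerol instead. Lipin 1 is also known as a nuclear coactivator of fat oxidation genes in the fasted liver, while Gpam is known as a target of the insulin-responsive factor encoded by Srebf1.

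Slc2a2 lay at 10.00 to 11.30 on the 6 control arrays and at 3.56 to 4.13 on the 6 LG2KO arrays, all values here being log2 expression. Markers of hepatocytes stood near the top of every array, with a median percentile from 99.5 to 99.9. Control refed replicate 1 and LG2KO fasted replicate 3 stood apart from their groups, with correlations within a group down to 0.984. Control fasted replicate 3 carried exocrine pancreas and muscle transcripts, with mean marker levels of 8.47 and 6.72 against at most 6.19 and 5.06 on the other arrays. LG2KO refed replicate 2 had the highest mean level of 5 measured adipocyte markers, 7.49 against 6.38 to 6.80 on the other arrays. A test between groups, which 0 of the 5 passed, cannot show whether a single array held other tissue. In whole liver, fewer cells of a type and less RNA per cell cannot be told apart.

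Among the 9 genes, feeding moved Lpin1 and Lpin2 the most. Refeeding lowered Lpin1 in control livers by 1.53 ± 0.18 (standard error, 2.89-fold, adjusted p = 0.00030) and Lpin2 by 1.07 ± 0.22 (2.10-fold, adjusted p = 0.0118). In LG2KO livers Lpin1 fell by 2.15 ± 0.18 (4.44-fold, adjusted p = 2.81e-05) and Lpin2 fell by 1.12 ± 0.22 (2.18-fold, adjusted p = 0.00888). Agpat2 rose with refeeding in LG2KO livers, by 0.35 ± 0.09 (1.27-fold, adjusted p = 0.0309). In controls 2 of 9 genes fell and 0 rose, where 6.46% of all genes passed, 3.17% lower and 3.29% higher. In LG2KO 2 of 9 fell and 1 rose, where 7.05% of all genes passed, 2.4% lower and 4.66% higher. The medians of the 9 fold changes were -0.28 and -0.13, beside -0.01 and 0.01 over all genes tested.

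**Figure D1:**
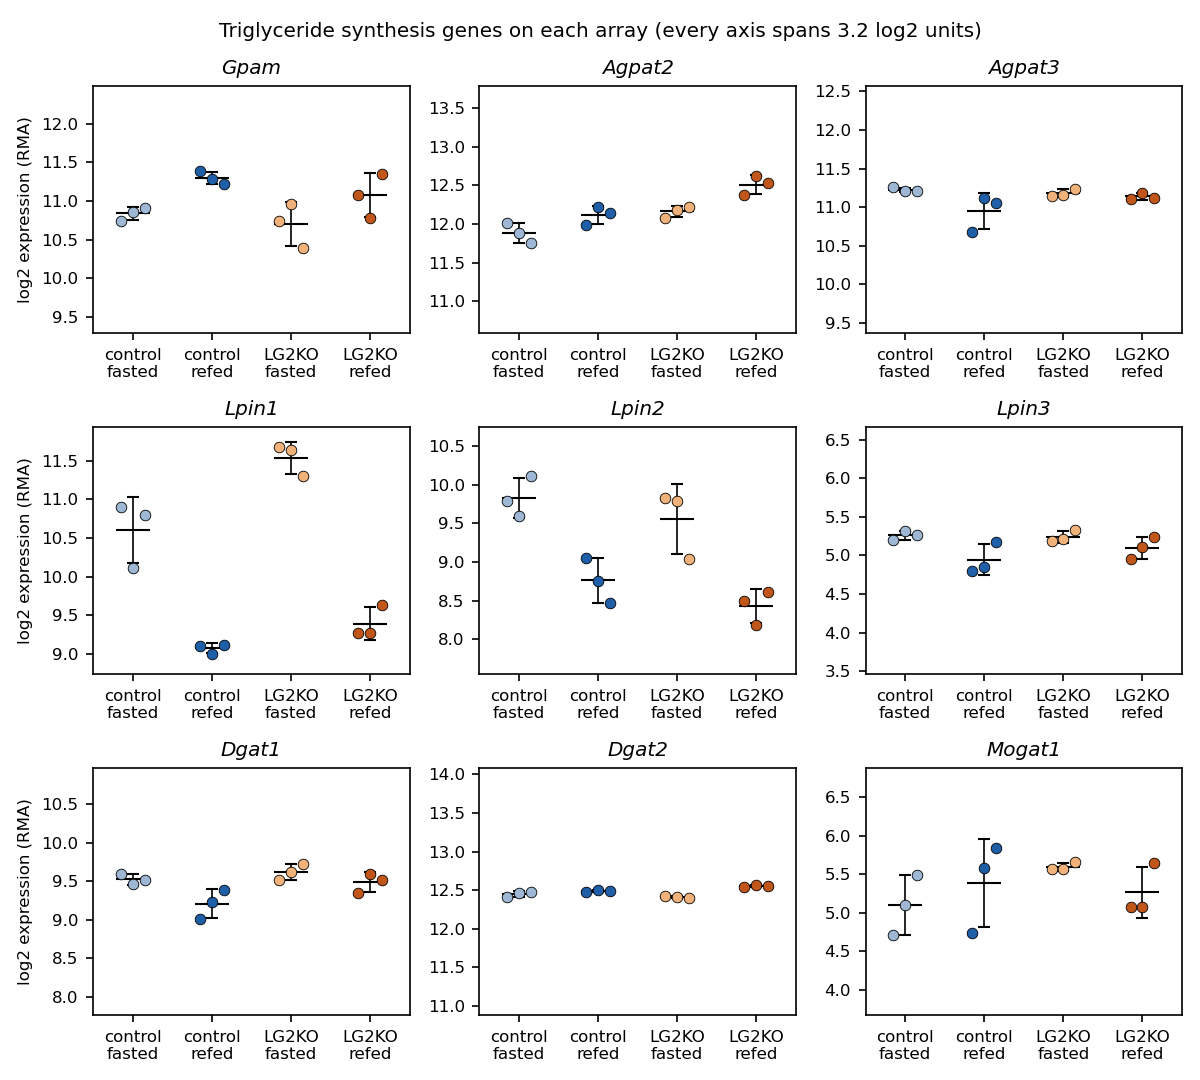
Log2 expression of each of the 9 genes on each of the 12 arrays, with points for single arrays, horizontal bars for group means and error bars for the SD of 3 arrays; every vertical axis spans 3.2 log2 units. Lpin1 covers 2.68 log2 units from its lowest to its highest array and Lpin2 covers 1.93, while Dgat2 covers 0.17.

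Lpin1 was the gene with the widest range. Its levels were 10.90, 10.12 and 10.80 on the control fasted arrays and 9.11, 8.997 and 9.11 on the control refed arrays. They were 11.68, 11.64 and 11.30 on the LG2KO fasted arrays and 9.27, 9.26 and 9.63 on the LG2KO refed arrays. The groups did not overlap at all and ran, from low to high, control refed, LG2KO refed, control fasted and LG2KO fasted. Neither the 2 refed groups nor the 2 fasted groups, which are neighbours in this order, differed by an amount that passed the test. The group means were 9.07 ± 0.06, 9.39 ± 0.21, 10.60 ± 0.42 and 11.54 ± 0.21 (SD, n = 3). Both of its probe sets gave the fall with refeeding, the second at -1.57 ± 0.18 in controls and -1.95 ± 0.18 in LG2KO, with adjusted p = 0.000238 and 4.89e-05 in a fit over all probe sets. The fall passed without each array in turn, from -1.77 to -1.39 in controls and from -2.27 to -2.08 in LG2KO.

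Lpin2, which encodes a lipin prominent in liver, was read by 4 probe sets. Its brightest probe set lay at 9.79, 9.60 and 10.11 on the control fasted arrays and at 9.06, 8.75 and 8.48 on the control refed arrays. In LG2KO livers it lay at 9.84, 9.80 and 9.03 when fasted and at 8.50, 8.19 and 8.62 when refed. Fasted and refed arrays did not overlap in either genotype, and the lowest LG2KO fasted value was that of replicate 3, which stands apart. The group means ran from LG2KO refed (8.43 ± 0.22) over control refed (8.76 ± 0.29) and LG2KO fasted (9.56 ± 0.45) to control fasted (9.83 ± 0.26), and neither pair within a feeding state passed the test. A further probe set gave falls of 1.41 ± 0.16 and 1.25 ± 0.16 in control and LG2KO (adjusted p = 0.000223 and 0.000631). Another stood at -0.92 ± 0.24 and -0.88 ± 0.24 (adjusted p = 0.0542 and 0.0648), and the dimmest, at a mean level of 4.28, at -0.55 ± 0.39 and -0.54 ± 0.39. The fall in controls missed the threshold without control refed replicate 3 (-0.93, adjusted p = 0.0564) or without control fasted replicate 3 (-0.93, adjusted p = 0.0571). In LG2KO it passed without each array, with adjusted p up to 0.0474.

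Lpin3 encodes the third lipin, which is little expressed in liver. It lay at 5.20, 5.31 and 5.27 on control fasted arrays, at 4.80, 4.85 and 5.17 on control refed arrays, at 5.18, 5.22 and 5.32 on LG2KO fasted arrays and at 4.95, 5.11 and 5.24 on LG2KO refed arrays. These values sit at the 50.2 to 57.9 percentile of the arrays, and no detection calls were used here, so whether they stand above background is not known. Its differences with refeeding were -0.32 ± 0.12 in controls and -0.14 ± 0.12 in LG2KO (adjusted p = 0.188 and 0.678).

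The stretches before the annotated transcript starts of the 3 genes that passed a test are shown because Lpin1 and Lpin2 fell together while Agpat2 did not. RefSeq, in the table of mouse build GRCm38.p6, held windows for 7 of the 9 genes, 11 windows in all. Each stretch is the 250 bases before a start, read 5′ to 3′ on the strand of the gene, with capitals for any of 7 motifs found on either strand. The Lpin1 stretch is chr12:16610967-16611216 (minus strand), the only window listed for the gene, and it lies within the gene as its longest annotated form runs. The Lpin2 stretch is chr17:71183282-71183531 (plus strand), the most upstream of 3 windows. The Agpat2 stretch is chr2:26604418-26604667 (minus strand).
Lpin1: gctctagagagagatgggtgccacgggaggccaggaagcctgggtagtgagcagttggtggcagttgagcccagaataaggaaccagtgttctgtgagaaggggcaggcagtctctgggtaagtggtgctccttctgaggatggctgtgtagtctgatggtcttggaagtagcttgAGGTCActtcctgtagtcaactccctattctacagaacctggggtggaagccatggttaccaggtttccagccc
Lpin2: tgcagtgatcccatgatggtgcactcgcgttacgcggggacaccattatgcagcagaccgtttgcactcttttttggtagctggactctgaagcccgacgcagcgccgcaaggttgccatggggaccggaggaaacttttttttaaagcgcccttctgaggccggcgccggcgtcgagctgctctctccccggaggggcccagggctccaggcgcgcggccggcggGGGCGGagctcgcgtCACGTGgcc
Agpat2: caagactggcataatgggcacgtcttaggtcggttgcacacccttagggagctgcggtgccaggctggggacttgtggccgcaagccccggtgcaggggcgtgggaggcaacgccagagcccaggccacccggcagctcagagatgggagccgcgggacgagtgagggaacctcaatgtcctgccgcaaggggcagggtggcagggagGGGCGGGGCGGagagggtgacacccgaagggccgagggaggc

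The capitals in Lpin1 mark AGGTCA, a half-site of nuclear receptors, which 14.0% of 32536 stretches of this length hold. In Lpin2 they mark the GC box GGGCGG (33.0% of stretches) and, ending 3 bases before the start, the E-box CACGTG, a core bound by basic helix-loop-helix factors (6.04% of stretches). In Agpat2 they mark 2 GC boxes that share 1 base. The other motifs searched were the cAMP response element TGACGTCA (1.56% of stretches), the FoxO element GTAAACA (3.17%), the sterol response element TCACNCCAC (1.04%) and the CCAAT box (33.8%), and none of them stood in these 3 stretches. The Lpin1 and Lpin2 stretches shared none of the 7 motifs. The most downstream window of Lpin2 held GTAAACA 1 time. These matches describe letters, not sites of binding.

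The genotype comparison of single feeding states gave no call among the 9 genes. In fasted livers 0 of 9 passed limma's test, where 0.396% of all genes passed (0.308% higher and 0.0879% lower), and Lpin1 and Agpat2 were the 2 with an unadjusted p below 0.05. Lpin1 was 0.94 ± 0.18 higher in LG2KO fasted livers (1.91-fold, 95% interval 0.54 to 1.33), with an adjusted p of 0.0584. All 3 LG2KO fasted arrays lay above all 3 control fasted arrays, the lowest of which was replicate 2 at 10.12. Without control fasted replicate 2 the difference was 0.69 (adjusted p = 0.126), and without the 2 arrays that stand apart it was 1.05 (adjusted p = 0.0418). Over its alternatives the adjusted p ran from 0.00543 with array weights to 0.275 without LG2KO fasted replicate 2. In refed livers the difference of LG2KO from control in Lpin1 was 0.32 ± 0.18 (adjusted p = 0.662), again with no overlap between the arrays, and 0.19 without LG2KO refed replicate 3. There, too, 0 of 9 genes passed limma's test, where 0.379% of all genes passed (0.291% higher and 0.0879% lower), and Agpat2 and Dgat1 had an unadjusted p below 0.05.

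Averaged over the feeding states, Lpin1 and Agpat2 were higher in LG2KO livers. Lpin1 rose by 0.63 ± 0.13 (1.54-fold, adjusted p = 0.0425) and Agpat2 by 0.34 ± 0.06 (1.26-fold, adjusted p = 0.0233), so 2 of 9 genes rose and 0 fell where 1.02% of all genes passed, 0.737% higher and 0.28% lower. In each feeding state the 3 LG2KO arrays lay above the 3 control arrays for both genes. Their fold changes kept their sign under every alternative tried, from 0.50 to 0.77 for Lpin1 and from 0.23 to 0.37 for Agpat2, but the calls were not firm. Of the 12 fits that left out 1 array, Lpin1 passed in 3, those without control fasted replicate 1, control fasted replicate 2 or LG2KO fasted replicate 3, and its adjusted p reached 0.117 in the other 9. Agpat2 passed in 6, and missed without replicate 2 or 3 of control fasted, LG2KO fasted or LG2KO refed, with adjusted p up to 0.0730. The dimmer probe set of Lpin1 stood at 0.73 ± 0.13 (adjusted p = 0.0239 over all probe sets), where the brighter one had an adjusted p of 0.0533. With replicate number as a block the adjusted p of Lpin1 was 0.0514.

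Whether feeding acted differently in the genotypes was tested by the interaction of genotype and feeding. For Lpin1 the signed change in LG2KO (-2.15) minus that in control (-1.53) was -0.62 ± 0.26, a larger fall in LG2KO, which did not pass (adjusted p = 0.990, unadjusted p = 0.0332, 95% interval -1.18 to -0.06). It was -0.38 without control fasted replicate 2, and the second probe set gave -0.38 ± 0.26. None of the 9 genes passed the limma test of the interaction, where 0.0055% of all genes did, and Lpin1 was the 1 with an unadjusted p below 0.05. For Lpin2 the interaction was -0.05 ± 0.31, with a 95% interval from -0.73 to 0.63. The refeeding and genotype comparisons share arrays, so the Lpin1 values on the LG2KO fasted arrays enter both.

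**Figure D2:**
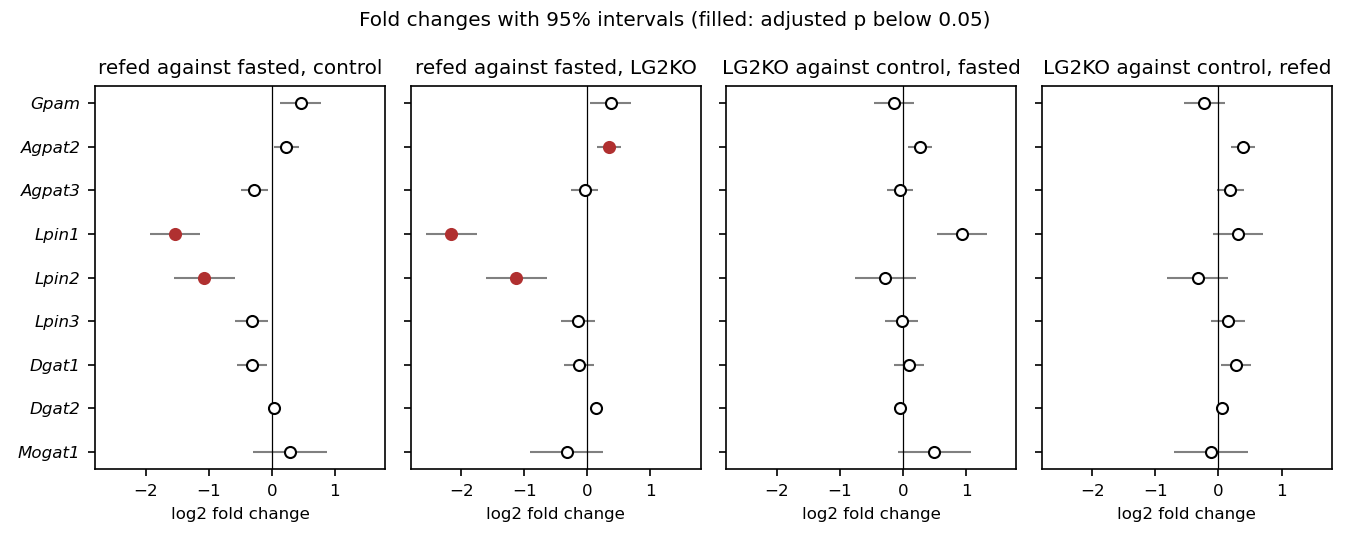
Log2 fold changes of the 9 genes with 95% intervals for refeeding in control and in LG2KO livers and for LG2KO against control in fasted and refed livers; filled points passed at an adjusted p below 0.05. Lpin1 and Lpin2 lie left of 0 in both refeeding panels, and none of the points in the genotype panels is filled.

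Agpat2 encodes the acylglycerol phosphate acyltransferase whose loss causes lipodystrophy. It was read by 1 bright probe set at the 98.1 to 99.1 percentile of the arrays. Its levels were 12.02, 11.88 and 11.75 on control fasted arrays, 11.99, 12.22 and 12.14 on control refed arrays, 12.08, 12.18 and 12.22 on LG2KO fasted arrays and 12.38, 12.62 and 12.54 on LG2KO refed arrays. The LG2KO refed arrays lay above all 9 other arrays, while control refed and LG2KO fasted arrays overlapped. With refeeding it differed by 0.23 ± 0.09 in controls (adjusted p = 0.171) and rose in LG2KO as given above, and the interaction was 0.12 ± 0.12 (95% interval -0.15 to 0.39). LG2KO refed replicate 2, with the highest adipocyte markers, was also the highest for Agpat2, and the part of fat tissue in this value was not tested. Without that array the rise in LG2KO was 0.29 (adjusted p = 0.135) and the averaged genotype difference 0.31 (adjusted p = 0.0612). The rise with refeeding also missed without LG2KO refed replicate 3 (0.34, adjusted p = 0.109), LG2KO fasted replicate 1 (0.31, adjusted p = 0.129) or LG2KO fasted replicate 2 (0.36, adjusted p = 0.0842). Without 4 arrays, namely the pair that stands apart and the pair with markers of other tissues, the averaged difference was 0.23 (adjusted p = 0.123), and without the pair that stands apart alone it was 0.29 (adjusted p = 0.0521).

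Gpam encodes the mitochondrial enzyme of the first step. Its levels were 10.74, 10.86 and 10.91 on control fasted arrays, 11.39, 11.29 and 11.23 on control refed arrays, 10.75, 10.96 and 10.39 on LG2KO fasted arrays and 11.08, 10.78 and 11.35 on LG2KO refed arrays. Fasted and refed arrays were apart in controls and overlapped in LG2KO. The differences with refeeding were 0.46 ± 0.15 in controls and 0.37 ± 0.15 in LG2KO (adjusted p = 0.0993 and 0.187), and the second probe set gave 0.51 ± 0.15 and 0.47 ± 0.15. The difference of LG2KO from control was -0.14 ± 0.15 when fasted and -0.23 ± 0.15 when refed, neither of which passed (adjusted p = 0.9999 and 0.709). The refed difference was -0.08 without LG2KO refed replicate 2, -0.37 without LG2KO refed replicate 3 and -0.04 without the 4 arrays named above. The fasted difference was 0.01 without LG2KO fasted replicate 3 and -0.27 without LG2KO fasted replicate 2, so no direction can be read for it. The refed values given here were all below 0, but their size depended on the arrays used. The second probe set stood at -0.21 ± 0.15 when fasted and -0.25 ± 0.15 when refed, and neither passed in the fit over all probe sets. The refeeding difference in LG2KO was 0.22 without LG2KO fasted replicate 3 and 0.23 without LG2KO refed replicate 3. In controls it was 0.45 without the 4 arrays, with an adjusted p of 0.0347. For comparison, Srebf1 rose with refeeding by 1.38 ± 0.10 in controls and by 1.65 ± 0.10 in LG2KO. The fatty acid synthase gene Fasn rose by 2.64 ± 0.16 and 1.65 ± 0.16, and the gluconeogenic gene Pck1 fell by 0.72 ± 0.16 and 0.58 ± 0.16. Fasn was also 1.27 ± 0.16 higher in LG2KO than in control livers when fasted (adjusted p = 0.00287).

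Agpat3, which encodes a related acyltransferase, gave different answers by probe set. The brightest lay at 11.26, 11.21 and 11.21 on control fasted arrays and at 10.68, 11.11 and 11.05 on control refed arrays. In LG2KO it lay at 11.15, 11.16 and 11.24 when fasted and at 11.11, 11.19 and 11.12 when refed. Its differences of -0.28 ± 0.10 and -0.04 ± 0.10 did not pass (adjusted p = 0.140 and 0.920), and the former was -0.14 without control refed replicate 1. Another probe set, whose name marks probes shared among transcripts, fell by 0.73 ± 0.13 in controls and by 0.69 ± 0.13 in LG2KO (adjusted p = 0.00443 and 0.00673). The dimmest fell by 0.55 ± 0.14 in controls (adjusted p = 0.0408) and stood at -0.36 ± 0.14 in LG2KO (adjusted p = 0.225). The remaining probe set stood at -0.32 ± 0.11 and -0.12 ± 0.11. With the mean of all 4 probe sets as the value of the gene, Agpat3 stood at -0.47 in controls with an adjusted p of 0.0117, so its call depends on the probe set. All 4 probe sets pointed down in both genotypes.

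**Figure D3:**
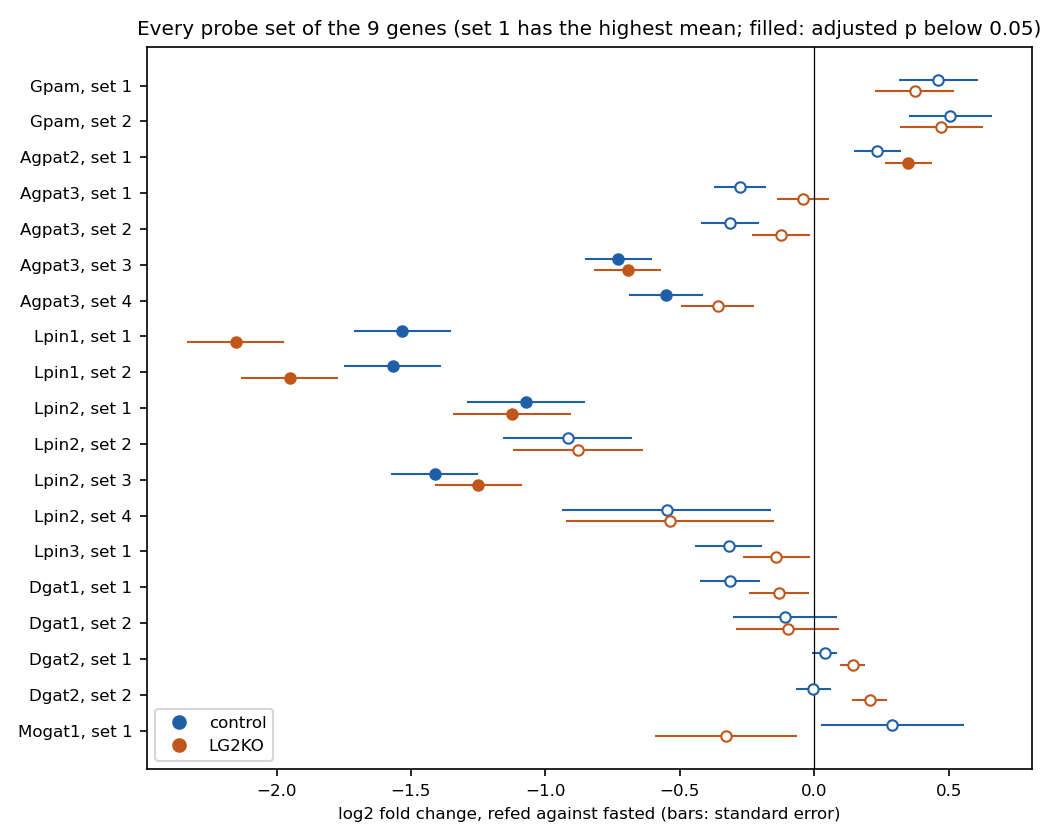
Log2 fold change with refeeding of each of the 19 probe sets in control and LG2KO livers, with standard errors, from a fit over all 45101 probe sets; set 1 of a gene has the highest mean level, and filled points passed at an adjusted p below 0.05. In controls 6 of 19 probe sets fell, 2 each of Lpin1, Lpin2 and Agpat3, and in LG2KO 5 fell and the probe set of Agpat2 rose.

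Of all probe sets on the array 3.84% passed with refeeding in controls and 3.99% in LG2KO. The 2 probe sets of Dgat1 and the 2 of Dgat2 gave no call in any comparison.

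The enzymes of the last step differed little between groups. Dgat1 was read from its brighter probe set, whose name also marks probes shared among transcripts. It lay at 9.59, 9.46 and 9.51 on control fasted arrays, at 9.01, 9.23 and 9.38 on control refed arrays, at 9.52, 9.62 and 9.72 on LG2KO fasted arrays and at 9.34, 9.60 and 9.52 on LG2KO refed arrays. Its difference with refeeding was -0.31 ± 0.11 in controls, whose arrays did not overlap, and -0.13 ± 0.11 in LG2KO (adjusted p = 0.140 and 0.661). The difference of LG2KO refed from control refed was 0.28 ± 0.11 (adjusted p = 0.452). It was 0.18 without control refed replicate 1 and 0.12 without the 4 arrays. By the brightest probe set of each gene, Dgat2, which encodes the main enzyme for newly made triglyceride in liver, was the steadiest of the 9 genes. It stayed between 12.40 and 12.57 on all 12 arrays, at the 98.9 to 99.1 percentile. Its differences with refeeding were 0.04 ± 0.04 in controls (95% interval -0.06 to 0.13) and 0.14 ± 0.04 in LG2KO (adjusted p = 0.0811), where the arrays did not overlap. The genotype differences were -0.04 ± 0.04 when fasted and 0.06 ± 0.04 when refed. The second probe set of Dgat2 ran from 11.60 to 11.94. With refeeding it stood at -0.003 ± 0.07 in controls and 0.21 ± 0.07 in LG2KO, with an interaction of 0.21 ± 0.09. Between genotypes it stood at -0.13 ± 0.07 when fasted and 0.08 ± 0.07 when refed, and none of these values passed.

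Mogat1 was dim, at the 48.0 to 65.6 percentile of the arrays, and varied within groups. Its levels were 4.71, 5.10 and 5.48 on control fasted arrays, 4.74, 5.58 and 5.84 on control refed arrays, 5.57, 5.56 and 5.66 on LG2KO fasted arrays and 5.08, 5.07 and 5.65 on LG2KO refed arrays. The LG2KO fasted arrays lay above the control fasted arrays, with a difference of 0.50 ± 0.27 (adjusted p = 0.9999, 95% interval -0.08 to 1.08). The interaction was -0.62 ± 0.38 and did not pass (adjusted p = 0.990), and it was -0.94 without control refed replicate 1. Without the 4 arrays Mogat1 passed with refeeding in controls at 0.81 (adjusted p = 0.0402), where all arrays gave 0.29 ± 0.27. That fit takes an array from every group, here the lowest control refed value (4.74) and the highest control fasted value (5.48).

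Groups that do not overlap were common among these genes and also among all genes. With refeeding the arrays did not overlap for 6 of 9 genes in controls and for 4 of 9 in LG2KO, where the shares of all genes were 20.5% and 22.5%. Between genotypes they did not overlap for 3 of 9 genes in refed livers and 3 of 9 in fasted livers, where the shares were 15.4% and 10.8%.

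Other genes around the pathway were read from lists chosen by function, against the shares of all genes that passed. With refeeding 3.29% of all genes rose and 3.17% fell in controls, and 4.66% rose and 2.4% fell in LG2KO. Without the 2 arrays that stand apart these shares were higher, 6.33% and 5.77% in controls and 7.74% and 9.78% in LG2KO. Without 4 arrays they were 5.13% and 3.93% in controls and 6.53% and 8.84% in LG2KO. Among 14 further acyltransferases and phosphatidate phosphatases, Gpat4, which encodes a glycerol phosphate acyltransferase of the endoplasmic reticulum, fell with refeeding by 0.75 ± 0.09 in controls and by 0.56 ± 0.09 in LG2KO (adjusted p = 0.000387 and 0.00309). It lay at 9.64, 9.51 and 9.81 on control fasted arrays and at 8.84, 8.95 and 8.92 on control refed arrays. It lay at 9.86, 9.83 and 9.70 on LG2KO fasted arrays and at 9.22, 9.26 and 9.23 on LG2KO refed arrays, so fasted and refed arrays were apart in both genotypes. The other 13 of this list did not pass in either genotype, and the list medians were -0.05 and -0.03. Without the 2 arrays that stand apart 1 rose and 2 fell in controls, and 1 rose and 3 fell in LG2KO, and without 4 arrays 0 rose and 2 fell, and 0 rose and 3 fell.

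The supply of glycerol phosphate and acyl-CoA showed calls of both signs. Of 14 measured genes, the mitochondrial glycerol phosphate dehydrogenase gene Gpd2 and the acyl-CoA synthetase gene Acsl3 rose with refeeding in controls, by 0.79 ± 0.18 and 1.12 ± 0.30. The transporter and acyl-CoA synthetase genes Slc27a5 and Slc27a2 fell by 0.27 ± 0.05 and 0.26 ± 0.07. Of these, Slc27a5 passed in all 6 fits that left out 1 array, Gpd2 in 2, Slc27a2 in 1 and Acsl3 in 0. Acsl3 also missed without 4 arrays (adjusted p = 0.0569) and passed without the 2 arrays that stand apart (adjusted p = 0.0319). In LG2KO the glycerol channel gene Aqp9 fell by 0.48 ± 0.11 and Slc27a2 fell by 0.26 ± 0.07, while Slc27a4 rose by 0.38 ± 0.10, and these passed in 2, 2 and 0 of 6 such fits. In controls Aqp9 stood at -0.31 ± 0.11 and Slc27a4 at 0.17 ± 0.10 (adjusted p = 0.140 and 0.466). In LG2KO Acsl3 stood at 0.90 ± 0.30, Slc27a5 at -0.08 ± 0.05 and Gpd2 at -0.17 ± 0.18 (adjusted p = 0.108, 0.446 and 0.749). Of the 14 genes 0 passed the interaction of genotype and feeding. Cytosolic glycerol phosphate dehydrogenase, Gpd1, was the gene of this list that differed by genotype. It was higher in LG2KO fasted livers by 0.67 ± 0.12 (1.595-fold, adjusted p = 0.0291), from 10.63, 10.78 and 10.49 to 11.17, 11.27 and 11.49. In the average of feeding states it was higher by 0.49 ± 0.08 (adjusted p = 0.0169), a call that passed without each of the 12 arrays in turn. The fasted call of Gpd1 missed without any 1 of the 6 arrays compared, with adjusted p up to 0.152. That call passed without the 2 arrays that stand apart (adjusted p = 0.0104) and without 4 arrays (adjusted p = 0.0311). Without the 2 arrays that stand apart 3 genes of this list rose and 4 fell in controls, 1 rose and 5 fell in LG2KO, and 2 were higher in LG2KO than in control when fasted, where 0.379% of all genes were. Without 4 arrays 1 rose and 2 fell in controls, and 1 rose and 5 fell in LG2KO.

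Of 23 measured genes that lead from phosphatidate and diacylglycerol to phospholipids, 3 fell with refeeding in controls and 0 rose, beside 3.17% and 3.29% of all genes. These were the choline kinase gene Chkb (fell by 0.56 ± 0.09), the phosphatidylserine synthase gene Ptdss2 (fell by 0.53 ± 0.09) and the cholinephosphotransferase gene Chpt1 (fell by 0.48 ± 0.13). Chkb and Ptdss2 passed in all 6 fits that left out 1 array and Chpt1 in 1. In LG2KO Chkb fell by 0.52 ± 0.09 and 4 genes rose: the phosphatidylinositol synthase gene Cdipt by 0.47 ± 0.09, Pgs1 of the cardiolipin branch by 0.58 ± 0.12, the choline kinase gene Chka by 0.84 ± 0.19 and Pcyt2 of phosphatidylethanolamine synthesis by 0.29 ± 0.07. All 6 fits that left out 1 array kept the calls of Chkb and Cdipt, 4 kept Pgs1, 4 kept Chka and 2 kept Pcyt2 (adjusted p up to 0.106), and Chka missed without 4 arrays (adjusted p = 0.0554). In controls Cdipt, Pgs1, Chka and Pcyt2 stood at 0.29, 0.38, 0.65 and 0.25 (adjusted p = 0.0779, 0.0880, 0.0625 and 0.0514). Ptdss2 and Chpt1 stood at -0.29 and -0.45 in LG2KO (adjusted p = 0.0962 and 0.0561). Of the 23 genes 0 passed the interaction of genotype and feeding, so these calls do not set the genotypes apart. Cds2, which turns phosphatidate toward these lipids, was higher in LG2KO refed livers by 0.47 ± 0.09 (adjusted p = 0.0456), a call that passed in 1 of 6 fits that left out 1 array. Without the 2 arrays that stand apart 5 rose and 5 fell in each genotype with refeeding, and 0 passed between genotypes in refed livers by limma, with Cds2 at an adjusted p of 0.0710. Without 4 arrays 3 rose and 3 fell in controls, and 4 rose and 3 fell in LG2KO. In that fit Cds2 passed between genotypes in refed livers (adjusted p = 0.0430).

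Regulators of the pathway moved widely with feeding. Of 15 genes 6 rose and 3 fell in controls, where 3.29% and 3.17% of all genes did, and 5 rose and 4 fell in LG2KO, where 4.66% and 2.4% did. Srebf1, as given above, and Insig1, a sterol-sensing partner of its pathway, rose. Insig1 rose by 1.93 ± 0.23 in controls and by 2.21 ± 0.23 in LG2KO. The coactivator gene Ppargc1b fell by 1.01 ± 0.13 in controls and by 0.74 ± 0.13 in LG2KO. The sterol receptor gene Nr1h3 rose by 0.43 ± 0.10 in controls and by 0.67 ± 0.10 in LG2KO, the former passing in 1 of 6 fits that left out 1 array. Srebf1 was the regulator that passed between genotypes, by 0.62 ± 0.10 when fasted and by 0.89 ± 0.10 when refed. The refed call passed in 6 of 6 fits that left out 1 array and the fasted call in 1 of 6. With the 2 arrays that stand apart left out 6 rose and 3 fell in controls, and 5 rose and 5 fell in LG2KO, and without 4 arrays 6 rose and 4 fell, and 5 rose and 5 fell.

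Genes of triglyceride storage and hydrolysis mostly fell with refeeding where they passed, 7 of 19 in controls with 0 higher, and 6 of 19 in LG2KO with 1 higher. Of all genes 3.17% fell in controls and 2.4% in LG2KO. Pnpla2, the lipase that starts triglyceride breakdown in lipid droplets, fell by 1.37 ± 0.10 in controls and by 1.01 ± 0.10 in LG2KO. The lipid droplet genes Plin4 and Plin5 fell by 1.37 ± 0.18 and 0.74 ± 0.12 in controls and fell by 0.71 ± 0.18 and 0.52 ± 0.12 in LG2KO, where they passed in 1 and 3 of 6 fits that left out 1 array. Ces1d, a carboxylesterase gene, fell by 0.46 ± 0.12 in controls and by 0.73 ± 0.12 in LG2KO, passing in 2 and 6 of 6 such fits. Pnpla3, a relative of Pnpla2, rose by 0.92 ± 0.15 in LG2KO and stood at 0.11 ± 0.15 in controls. Its interaction of genotype and feeding was 0.81 ± 0.21, which did not pass (adjusted p = 0.574). The list medians were -0.18 in controls and -0.24 in LG2KO. Pnpla3 was the member that passed between genotypes, higher in LG2KO refed livers by 1.03 ± 0.15, a call that held in 3 of 6 fits that left out 1 array. Pnpla3 was dim, with group means of 5.37 in control fasted, 5.48 in control refed, 5.59 in LG2KO fasted and 6.52 in LG2KO refed livers. Whether the lower levels stand above background is not known. With the 2 arrays that stand apart left out 2 rose and 7 fell in controls, and 3 rose and 8 fell in LG2KO, and without 4 arrays 1 rose and 7 fell, and 2 rose and 8 fell.

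**Figure D4:**
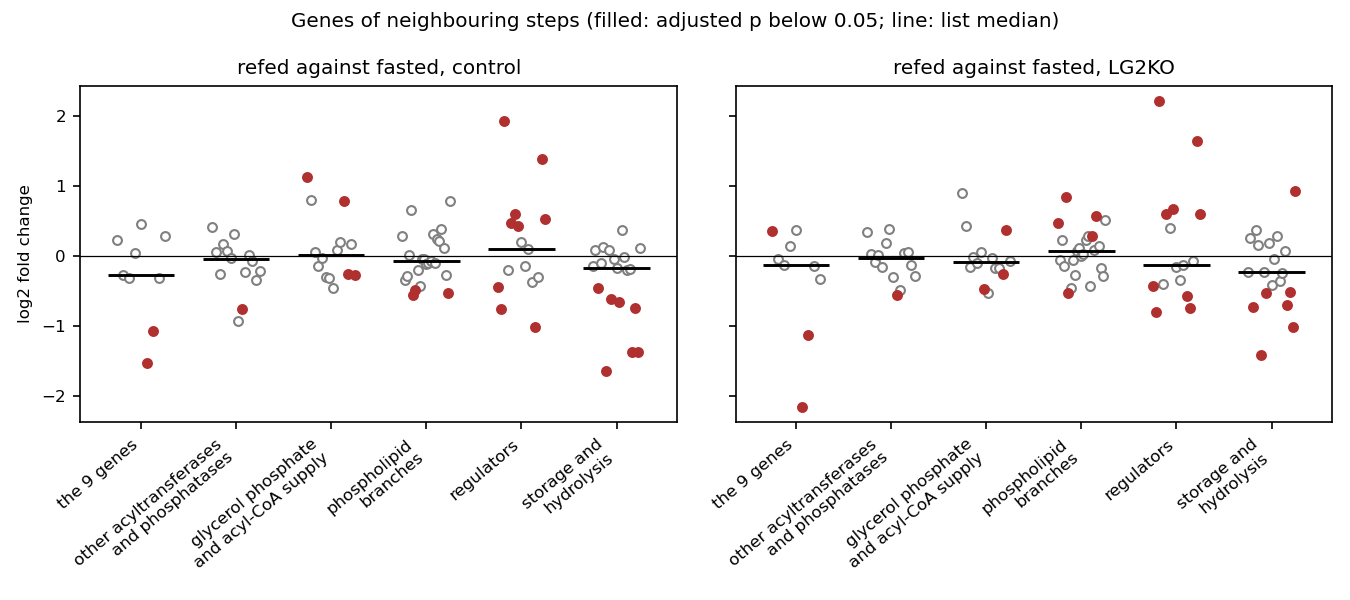
Log2 fold changes with refeeding in control and LG2KO livers for the 9 genes and for 5 lists of neighbouring steps; filled points passed at an adjusted p below 0.05 and lines mark list medians. Storage and hydrolysis has a median of -0.18 in controls and -0.24 in LG2KO, with 7 and 6 genes falling.

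The genes whose log2 values ran most like those of the genes that passed were sought among 9096 brighter genes over the 12 arrays. For Lpin1 they were Nipsnap1 and Pi4ka, with Pearson correlations of 0.97 and 0.96. For Lpin2 they were Xpa and Sptan1, both at 0.98, and for Agpat2 Dnpep and Lamtor1, at 0.96 and 0.95. The arrays share the difference between feeding states, so these correlations describe the groups as much as single arrays. Without the 2 arrays that stand apart the 6 correlations lay between 0.96 and 0.99. The remaining arrays had also served to pick these genes, so the high values are no separate support.

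**Figure D5:**
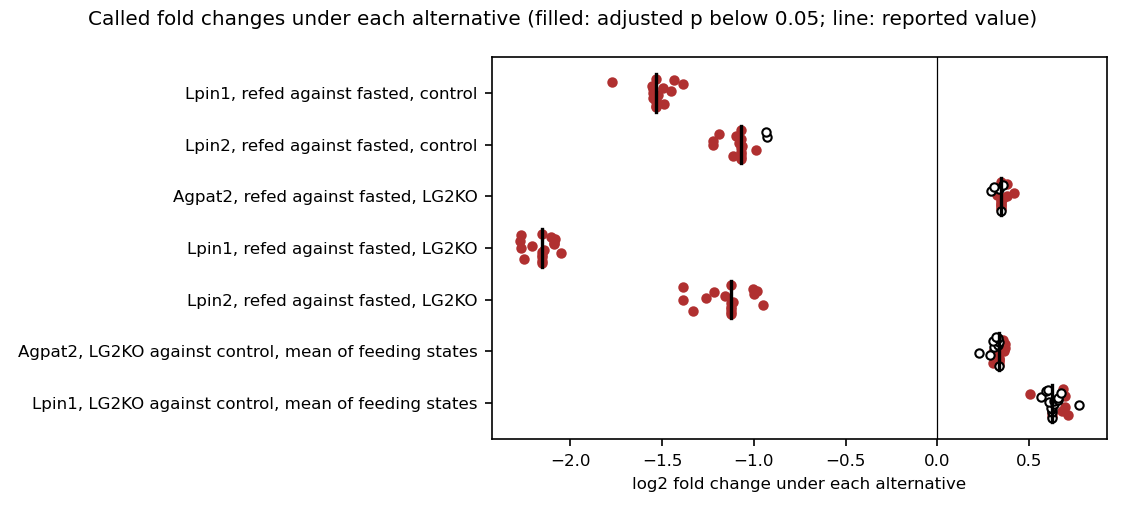
Log2 fold changes of the 7 differences that passed, under each other processing and with arrays left out; filled points passed at an adjusted p below 0.05, and the upright line is the reported value. Lpin1 with refeeding stays filled under all 17 alternatives in each genotype, while Lpin1 in the averaged genotype comparison is filled under 8 of 22 and Agpat2 under 13 of 22.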

How the data were processed

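Liver RNA of 12 pools was read on an Affymetrix mouse array. The authors deposited 1 log2 value for each probe set on each array, made with RMA, per the submitters' processing notes. The sources used here do not give its software, version or genome build. Of 45101 probe sets 34958 had 1 gene symbol in the platform's annotation, and each of 18194 symbols was represented by its probe set of highest mean. Probe sets with several symbols or none were not used here for genes.

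The test was limma's moderated statistic (limma 3.58.1, R 4.3.3), fitted to all 12 arrays with a mean for each group and a variance trend, which leaves 8 residual degrees of freedom. Both tails were counted (two-sided tests), and the Benjamini-Hochberg adjustment ran over all genes within each of 6 comparisons, with a threshold of 0.05. Errors of fold changes are standard errors. Each p-value sets a difference between groups against the spread among pools within the groups. The fit was tested on simulated data. Percentiles are ranks among all probe sets of an array. The genes and lists were chosen with earlier results of these data known. Named genes are the 9 genes, up to 3 genes of a list with the smallest adjusted p per comparison, Slc2a2, Srebf1, Fasn, Pck1 and the nearest 2 genes by correlation. Acsl3, Chka and Pcyt2 were added after their values were seen. Alternatives changed the variance model, array weights, filter, probe set rule, centring and arrays used. Sequences are RefSeq's, and figures were drawn with matplotlib 3.10.9. The number of arrays limits the precision.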

Additional observations from a re-analysis of the deposited data

How the results depend on the processing

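Over the 9 genes and 6 comparisons, 955 of 996 recomputed fold changes stayed on their side of the threshold, 30 lost a call, 11 gained one and 0 that passed changed sign; 22 values that passed under neither setting changed sign. The fall of Lpin1 with refeeding passed under every alternative in both genotypes, and that of Lpin2 in LG2KO did too. For LG2KO against control when fasted, 1 gene, Lpin1, passed with array weights, with only genes above the median level, and without the 2 arrays that stand apart, against 0. With refeeding in controls 4 genes passed with array weights and 4 without 4 arrays (an alternative chosen after seeing the data), against 2, and leaving out 1 array gave 1 to 2. For the averaged genotype difference the count was 2, and it was 0 without the intensity trend and 0 without 4 arrays. It was 1 without the 2 arrays that stand apart, 1 over all probe sets, 1 with arrays centred on their medians and 1 with replicate number as a block, and leaving out 1 array gave 0 to 2. The cause was not tested. Centring arrays moved the median gene by at most 0.01 in any comparison.

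The block changed 1 call among the 9 genes, that of Lpin1 in the averaged comparison (adjusted p = 0.0514). Arrays with the same replicate number deviated together, with a correlation above 0.1, in 5 of 18 pairs, from -0.42 to 0.71, so the numbers were not taken to pair the pools. Among all genes the number passing ranged, over alternatives other than single arrays left out, from 15 to 180 for LG2KO against control when refed (69 as reported), from 44 to 203 when fasted (72), from 695 to 2454 for refeeding in controls (1176), from 1059 to 3578 in LG2KO (1283), from 1 to 20 for the interaction (1) and from 122 to 443 for the averaged genotype difference (185). Array weights gave the highest count in each. Leaving out 1 array gave 8 to 46, 30 to 48, 706 to 1467, 697 to 1507, 1 to 2 and 88 to 207 in the same order. The genotype counts for refed and for fasted livers were thus both lower without any 1 of the arrays compared.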
